A study of Mus musculus with 75 samples.

Results

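The angiopoietin-TIE system was followed here through 5 genes, the ligand genes Angpt1 and Angpt2, the receptor genes Tek (which encodes TIE2) and Tie1, and Ptprb, which encodes the phosphatase VE-PTP (called Veptp in the mouse lines). They were chosen by name, and all 5 were found among the 32245 genes of the count table. RNA of whole kidneys was sequenced from adult mice 3 days after unilateral ureter obstruction (UUO), in which the ureter of 1 kidney is ligated and the contralateral (CL) kidney keeps its flow. The table holds 75 libraries in 3 arms of 4 groups each. In the ABTAA arm, wild-type mice received either ABTAA (label ABT), an antibody that binds ANGPT2 and clusters it into an activator of TIE2, or human IgG Fc as the control, with 8 libraries from each kidney of IgG-treated and 7 from each kidney of ABTAA-treated mice. In the Veptp arm, Veptp iECKO mice (label VeKO) carried floxed Veptp and a tamoxifen-inducible Cre driven by the endothelial Cdh5 promoter, and their Veptp WT controls (label VeWT) were littermates that carried the same Cre with 1 floxed allele and were not induced; this arm had 7 WT CL, 8 WT UUO, 6 iECKO CL, and 8 iECKO UUO libraries. The WT UUO libraries outnumber the Veptp WT mice that the study's methods state, and which of them would share a mouse is not labelled. In the Pdgfb arm, Pdgfb iKO mice (label PbKO) carried floxed Pdgfb and an inducible Cre under the Actb promoter, which is active throughout the body, and their controls (label PbWT) carried floxed alleles without Cre; each of its groups had 4 libraries. The genetic lines were of mixed background, all mice had surgery under the same analgesic, and kidneys of sham-operated mice are among the Pdgfb WT CL kidneys without being marked. Mice of both sexes were used, with an uneven share in some groups by the study's methods. The sex behind each library is not labelled, so it could not be accounted for.

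TIE2 is a receptor tyrosine kinase of endothelial cells whose phosphorylation keeps vessels quiescent and tight. ANGPT1, made by perivascular mesenchymal cells, podocytes, and tubular epithelial cells, is its main agonist, and ANGPT2, stored and released by activated endothelial cells, is a weak and context-dependent ligand that can antagonize it. TIE1 binds neither ligand strongly but forms complexes with TIE2, and VE-PTP removes phosphate from TIE2 and from VE-cadherin, so that losing VE-PTP leaves TIE2 more active. In the kidney the receptors and VE-PTP mark capillary and glomerular endothelium.

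Totals per library ran from 172827 to 2341800 counts, with a median of 757897, so that the 5 genes rest on few counts. Median counts per library were 36 for Ptprb, 23 for Tek, 13 for Angpt2, 12 for Tie1, and 9 for Angpt1, and 40 of the 75 libraries held fewer than 10 counts of Angpt1. Kidney markers were present in every library, with the summed level of 5 proximal tubule genes between 1234 and 7476 CPM and that of 12 endothelial genes between 218 and 839 CPM (read counts relative to the library's total after TMM scaling). The kidney injury gene Havcr1 rose with obstruction by 5.49 on the log2 scale (SE 0.26) over all mice. Library names came in 2 forms, 45 with letter and number joined and 30 with letter and number split, and the levels of the members differed between the forms: in the ABTAA arm the median of Tek was 27.0 CPM in 16 libraries with joined and 47.4 CPM in 14 libraries with split names, and in the Veptp arm the median of Ptprb was 58.6 CPM in 13 libraries with joined and 28.5 CPM in 16 with split names. The Pdgfb arm had only joined names. What the forms stand for is not given in the sources used here. In the Veptp arm, 8 libraries carry a number that goes with one genotype in the CL and the other in the UUO kidney, so the main values of that arm are also given without them. Of the deleted genes, Ptprb is described with the Veptp arm below. Pdgfb stood at 4.53, 9.81, 7.43, and 20.1 CPM in WT CL libraries, against 16.8, 17.7, 25.1, and 16.9 CPM in CL libraries labelled Pdgfb iKO, so that it was not lower there. In UUO kidneys it averaged 53.1 ± 6.49 CPM (SD, n = 4) in WT and 37.2 ± 3.34 CPM (SD, n = 4) in the libraries labelled Pdgfb iKO, without overlap, a difference of -0.47 on the log2 scale (SE 0.21, adjusted p = 0.125). Its rise with obstruction was smaller in mice labelled Pdgfb iKO by a difference of -1.26 (SE 0.39, adjusted p = 0.0461). Whole-gene reads do not show which exons remain.

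On mouse build GRCm38 (mm10), Tek lies on chromosome 4 from 94739289 to 94874976 on the forward strand, and Tie1 on the same chromosome from 118471191 to 118490061 on the reverse strand. Ptprb occupies chromosome 10 from 116275523 to 116389535 (forward), Angpt1 chromosome 15 from 42424723 to 42676977 (reverse), and Angpt2 chromosome 8 from 18690263 to 18741562 (reverse). Angpt2 sits within the span of Mcph1 on the other strand, but the annotation gives 0 shared exonic bases. Angpt1 shares 737 of its 5205 exonic bases with the antisense gene Gm17473, which held 157 counts over all libraries against 839 for Angpt1. Whether the counting used strand is not given in the sources used here, and reads in those shared bases could not be told apart without it.

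**Figure D1:**
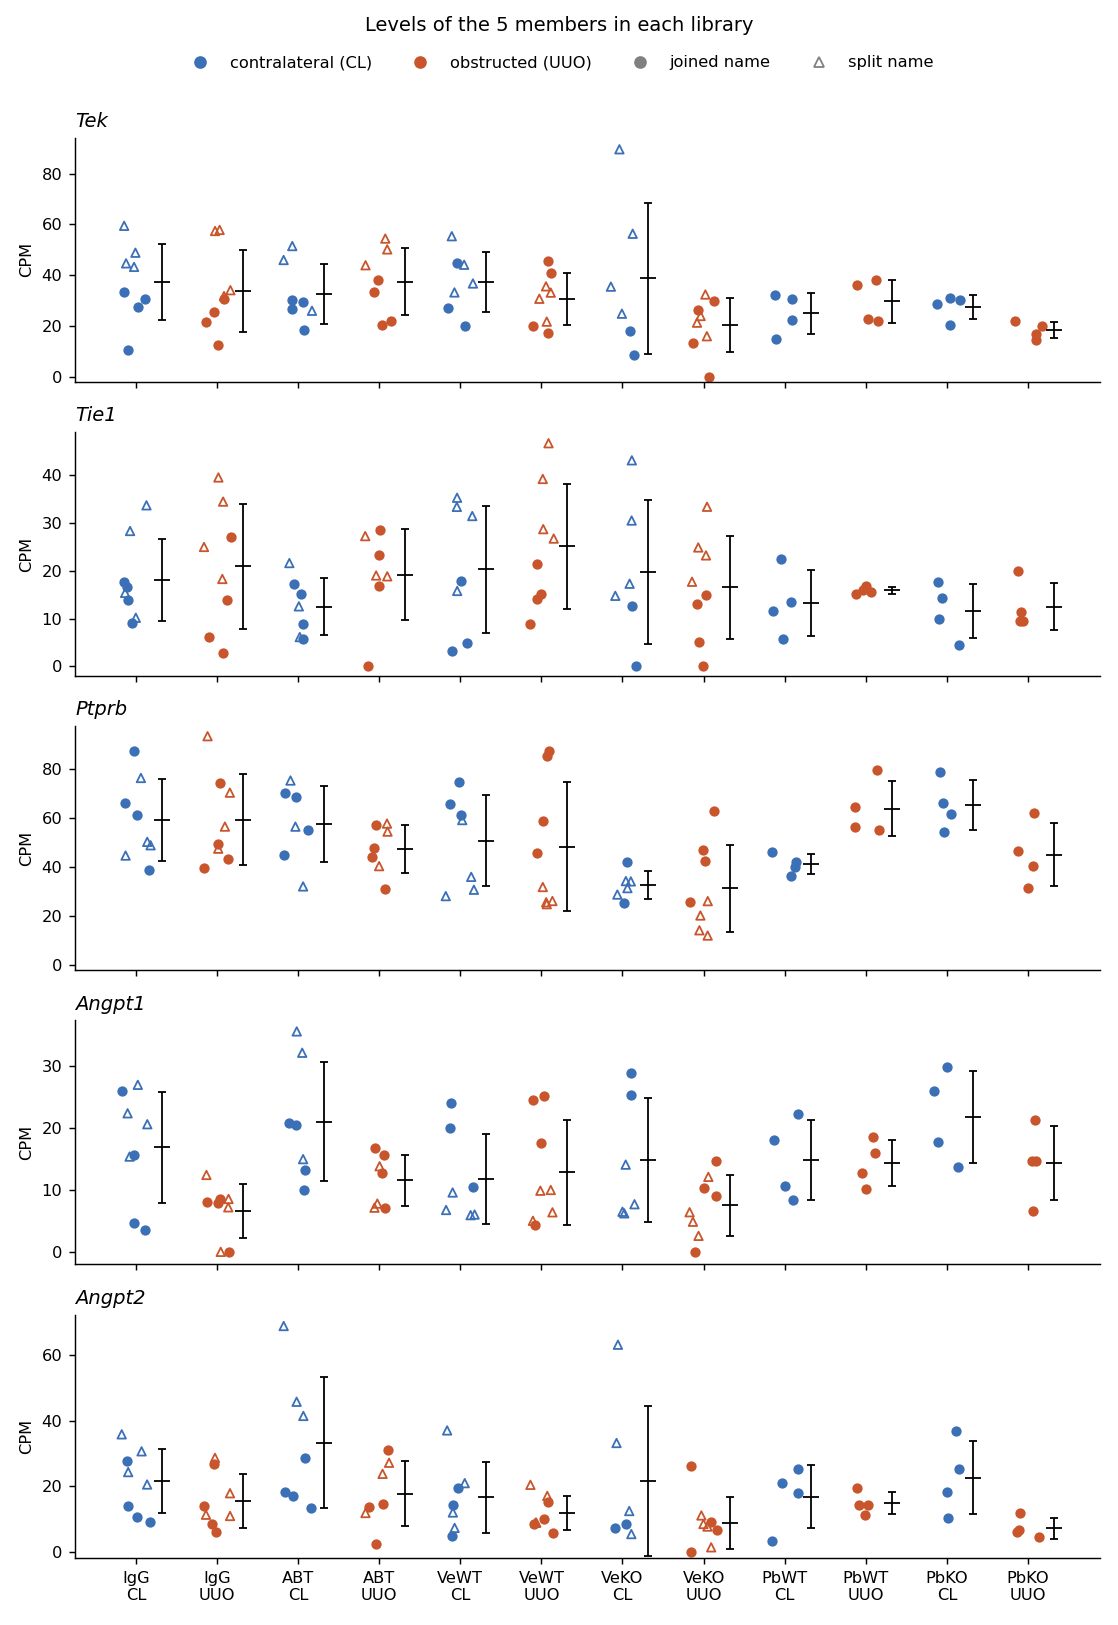
CPM of each member (1 panel per gene, linear axis) in each of the 75 libraries, by group along the horizontal axis; blue is CL and red is UUO, filled circles are libraries with joined and open triangles libraries with split names, and black marks are the group mean ± SD. Most groups overlap within a member, and group means of Angpt2 run from 33.4 CPM in ABTAA CL down to 7.23 CPM in UUO kidneys labelled Pdgfb iKO.

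The first question was whether obstruction moved the system over all mice. Both ligand genes were lower in obstructed kidneys, and the receptor genes and Ptprb did not pass the test. Each UUO effect was averaged over the 6 treatments and genotypes in 1 fit of all 75 libraries (edgeR's quasi-likelihood test, adjusted by the Benjamini-Hochberg method over all genes tested, threshold 0.05, used for every adjusted p in this text unless another test is named). Angpt2 fell by 0.85 on the log2 scale (SE 0.20, adjusted p = 0.000211), which is 0.554-fold. Angpt1 fell by 0.54 (SE 0.17, adjusted p = 0.0068), or 0.688-fold. The change of Tek was -0.25 (SE 0.14, adjusted p = 0.120), that of Tie1 0.21 (SE 0.19, adjusted p = 0.366), and that of Ptprb -0.08 (SE 0.12, adjusted p = 0.613). Tek was called with a term for the form of library names (-0.26, adjusted p = 0.0417) and in libraries of at least 400000 counts (-0.30, adjusted p = 0.0340), the latter chosen after seeing the data. The 2 called members of 5 stand against a background of 50.6% of 12210 genes called, so a call is common in this comparison. Of the genes called 50.8% were higher, and 73.9% without TMM factors. Whether the effect of UUO differed among the 6 treatments and genotypes was also tested (F test on 5 differences, 0.0573% of genes called), and no member passed, the lowest adjusted p being 0.912 for Tek; in this test 764 of all genes and 0 members had an unadjusted p under 0.05. In these bulk samples, fewer cells of a type and less RNA per cell cannot be told apart.

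The 2 calls were also followed by form of library name, without the ABTAA arm, and without TMM factors. Angpt2 had an effect of -1.17 (adjusted p = 0.000938) in libraries with split names and of -0.32 (adjusted p = 0.328) in those with joined names. Within the ABTAA and Veptp arms, where both forms occur, the UUO effect on Angpt2 was -1.16 (SE 0.25, 30 libraries) with split and -0.04 (SE 0.43, 29 libraries) with joined names, a comparison chosen after seeing the data; their difference of -1.12 (SE 0.47) did not pass (unadjusted p = 0.0212, adjusted p = 0.260). Angpt1 was called in both forms, at -0.80 (adjusted p = 0.0047) with split and -0.56 (adjusted p = 0.0166) with joined names. Without the ABTAA arm, however, the mean effect on Angpt1 was -0.27 (adjusted p = 0.394), while that on Angpt2 was -0.90 (adjusted p = 0.00732). Without TMM factors, which moved the median of all genes by 0.19, the effect on Angpt1 was -0.35 (adjusted p = 0.0694).

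Angpt1, the agonist, had its highest group means in CL kidneys of ABTAA-treated mice and of mice labelled Pdgfb iKO, and its lowest in obstructed kidneys of IgG-treated mice. In IgG CL kidneys it ran from 3.54 to 26.9 CPM with a median of 18.1 CPM, and in IgG UUO kidneys from 0 to 12.4 CPM with a median of 8.00 CPM. The ranges overlapped, but 6 of the 8 CL libraries lay above every UUO library. Angpt1 fell by 1.25 on the log2 scale in IgG-treated mice (SE 0.36, adjusted p = 0.00638); it was the 1 member called in this comparison, in which 34.5% of 9579 genes were called. Replicates 4 and 7 of IgG UUO held 0 counts of Angpt1, which at their depth allows a level of up to 18.6 and 6.81 CPM (3 counts, counting error only). IgG UUO libraries were also the shallowest group, with a median total of 400371 counts against 642475 in IgG CL. Angpt1 did not pass the count filter, and so was not tested, under edgeR's exact test, the test the study used. Leaving out any 1 library kept the call, with effects from -1.44 to -1.08 and adjusted p from 0.00247 to 0.0197.

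In ABTAA-treated mice Angpt1 ran from 9.98 to 35.5 CPM with a median of 20.5 CPM in CL kidneys and from 7.12 to 16.8 CPM with a median of 12.7 CPM in UUO kidneys. Its difference of -0.83 (SE 0.33, adjusted p = 0.0669) missed the threshold, as did every other member, where 25.1% of genes were called. Among the 6 ABTAA libraries whose names share a number between the kidneys, and whose deviations from the group means went together, the effect with the number as a block was -1.50 for Angpt1 (adjusted p = 0.00604) and -1.31 for Angpt2 (adjusted p = 0.00176), and both were called. The same 6 libraries also called both members without the block. The difference between the responses of ABTAA- and IgG-treated mice was 0.42 for Angpt1 (SE 0.49, adjusted p = 0.999), and 0% of genes were called for that difference.

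In the other arms Angpt1 was not called. Its log2 fold change was 0.19 (SE 0.45, adjusted p = 0.839) in Veptp WT mice, where 18.4% of 11916 genes and 0 members were called, and -0.72 (SE 0.50, adjusted p = 0.479) in Veptp iECKO mice, where 7.95% of genes and 0 members were called. Without the 8 libraries whose number goes with both genotypes these were 0.21 (adjusted p = 0.899) and -0.56 (adjusted p = 0.824). In Pdgfb WT mice it was -0.04 (SE 0.31, adjusted p = 0.937), with 18.1, 8.41, 22.3, and 10.6 CPM in CL and 12.7, 10.2, 16.0, and 18.5 CPM in UUO kidneys, so the 2 sets of 4 lay within one another. In mice labelled Pdgfb iKO it was -0.55 (SE 0.32, adjusted p = 0.357).

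Angpt2, the context-dependent ligand, had a negative log2 fold change with obstruction in each of the 6 treatments and genotypes. It was called in the mice labelled Pdgfb iKO, where it stood at 10.4, 25.3, 18.2, and 36.8 CPM in CL and at 6.63, 4.51, 6.01, and 11.8 CPM in UUO kidneys. A single UUO library reached above the lowest CL library. The log2 fold change was -1.61 (SE 0.46, adjusted p = 0.0355), and this was 1 member of 5 called against a background of 6.35% of 10923 genes. In the same comparison 11 of 11 endothelial genes tested were lower, 1 of them called (Flt1), with a median of -0.40, and 5 of 5 podocyte genes were lower with none called. Set against the endothelial genes, Angpt2 differed by -1.06 (exact permutation p = 0.0571, adjusted p = 0.386). The call rested on 2 to 37 counts per library and was lost without replicate 2 or 4 of the CL group or replicate 2 or 3 of the UUO group, with adjusted p up to 0.268, and also with all 12 groups in 1 fit (adjusted p = 0.286) and with libraries thinned to equal depth (adjusted p = 0.104).

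In IgG-treated mice Angpt2 ran from 9.20 to 35.9 CPM in CL kidneys (median 22.5 CPM) and from 6.19 to 28.7 CPM in UUO kidneys (median 12.6 CPM), a change of -0.56 on the log2 scale (SE 0.36, adjusted p = 0.242). In ABTAA-treated mice the ranges were 13.3 to 69.0 CPM in CL (median 28.7 CPM) and 2.37 to 31.1 CPM in UUO kidneys (median 14.7 CPM), a change of -0.83 on the log2 scale (SE 0.35, adjusted p = 0.0821). The 3 highest libraries of ABTAA CL all had split names. In Veptp WT mice the log2 fold change was -0.47 (SE 0.48, adjusted p = 0.581), and in Veptp iECKO mice it was -1.32 (SE 0.52, adjusted p = 0.125), where the CL libraries spread from 5.43 to 63.3 CPM. Without the 8 libraries of the Veptp arm whose number goes with both genotypes it was -0.52 in Veptp iECKO mice (adjusted p = 0.800), and without replicate 5 of the iECKO CL group, the highest CL library, it was -0.63 (adjusted p = 0.601). It was called without replicate 3 of the iECKO UUO group (-1.75, adjusted p = 0.0302), with a term for the form of library names (-1.48, adjusted p = 0.0267), and with all 12 groups in 1 fit (-1.40, adjusted p = 0.0243). In Pdgfb WT mice, with 3.39, 25.2, 17.8, and 21.1 CPM in CL and 11.4, 14.3, 14.4, and 19.4 CPM in UUO kidneys, it was -0.18 (SE 0.38, adjusted p = 0.761).

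Mcph1, the gene around Angpt2, moved the other way with a mean UUO effect of 0.41 (SE 0.16, adjusted p = 0.0232).

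Tek, the TIE2 receptor gene, was not called in any of the 6 comparisons of UUO with CL kidneys. Its log2 fold change was -0.11 (SE 0.26, adjusted p = 0.782) in IgG-treated, 0.26 (SE 0.27, adjusted p = 0.537) in ABTAA-treated, -0.30 (SE 0.33, adjusted p = 0.624) in Veptp WT, and 0.26 (SE 0.24, adjusted p = 0.444) in Pdgfb WT mice. Lower values were seen in Veptp iECKO mice, at -0.88 (SE 0.36, unadjusted p = 0.0189, adjusted p = 0.134), and in mice labelled Pdgfb iKO, at -0.62 (SE 0.29, unadjusted p = 0.0411, adjusted p = 0.223). The endothelial list was lower in both, with 10 of 11 genes tested lower, 2 called, and a median of -0.49 in Veptp iECKO mice, and 11 of 11 lower, 1 called, and a median of -0.40 in mice labelled Pdgfb iKO. Of all genes 7.95% and 6.35% were called in these comparisons, with medians of 0.013 and -0.0023. Set against those genes, Tek differed by -0.48 (exact permutation p = 0.602) and -0.16 (exact permutation p = 0.371). In Veptp iECKO mice Tek ran from 8.44 to 89.6 CPM in CL kidneys (median 30.2 CPM) and from 0 to 32.4 CPM in UUO kidneys (median 22.6 CPM), and the ranges overlapped. Within the forms of library name its effect there was -1.12 with split (adjusted p = 0.0140) and 0.62 with joined names (adjusted p = 0.902). The latter rests on replicates 1 and 2 alone of the CL group. Over both genotypes of the arm the effects on Tek in the 2 forms differed by -1.07 (SE 0.44), which did not pass (unadjusted p = 0.0182, adjusted p = 0.314). That comparison was chosen after seeing the data. Without the 8 libraries whose number goes with both genotypes the effect on Tek was -0.47 (adjusted p = 0.783) in Veptp iECKO mice, and -0.25 (adjusted p = 0.820) in Veptp WT mice.

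Tie1, the other receptor gene, was likewise not called. Its log2 fold changes with obstruction were 0.24 (SE 0.36, adjusted p = 0.653) in IgG-treated, 0.65 (SE 0.38, adjusted p = 0.225) in ABTAA-treated, 0.30 (SE 0.43, adjusted p = 0.712) in Veptp WT, -0.15 (SE 0.47, adjusted p = 0.916) in Veptp iECKO, 0.31 (SE 0.31, adjusted p = 0.468) in Pdgfb WT, and -0.07 (SE 0.39, adjusted p = 0.956) in mice labelled Pdgfb iKO. Tie1 was at 0 counts in 3 libraries.

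Ptprb, the phosphatase gene, rose in Pdgfb WT mice and was not called in the other treatments and genotypes. In Pdgfb WT it stood at 36.2, 46.3, 40.1, and 42.2 CPM in CL and at 55.1, 56.1, 64.3, and 79.7 CPM in UUO kidneys, and the groups did not overlap. The log2 fold change was 0.63 (SE 0.19, adjusted p = 0.00995), 1 member called where 37.3% of 10923 genes were called. By the study's methods, kidneys of 2 sham-operated mice are among those CL libraries without being marked. Not all of them are therefore contralateral to an obstructed kidney, which also holds for the differences from Pdgfb WT CL kidneys below. In the mice labelled Pdgfb iKO the order was the opposite, with 54.4, 78.5, 66.1, and 61.7 CPM in CL and 46.4, 31.6, 40.3, and 62.1 CPM in UUO kidneys, and Ptprb differed by -0.49 without passing the test (SE 0.20, adjusted p = 0.164). The 2 responses differed by -1.12 (SE 0.28, adjusted p = 0.0107), a call made for 8.56% of genes. The endothelial list differed the same way, with 10 of 11 genes tested lower, 2 of them called (Flt1 and Eng), and a median of -0.52 against -0.00014 over all genes. Set against the 12 endothelial genes of its library, Ptprb differed with obstruction by 0.47 in Pdgfb WT and by -0.15 in mice labelled Pdgfb iKO, and the difference between these values was not tested. Both kidneys entered it: between CL kidneys Ptprb was higher in those labelled Pdgfb iKO by 0.64 (SE 0.20, unadjusted p = 0.00432), and the groups did not overlap, yet with 0% of genes called in that comparison its adjusted p was 1.00. The difference in responses kept its direction but lost its call with all 12 groups in 1 fit (adjusted p = 0.376) and with libraries thinned to equal depth (adjusted p = 0.179), as did the rise in Pdgfb WT mice (adjusted p = 0.175 and 0.132). In IgG-treated mice the log2 fold change of Ptprb was -0.01 (SE 0.19, adjusted p = 0.979), in ABTAA-treated mice -0.23 (SE 0.20, adjusted p = 0.431), in Veptp WT mice -0.06 (SE 0.33, adjusted p = 0.925), and in Veptp iECKO mice -0.13 (SE 0.36, adjusted p = 0.901).

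**Figure D2:**
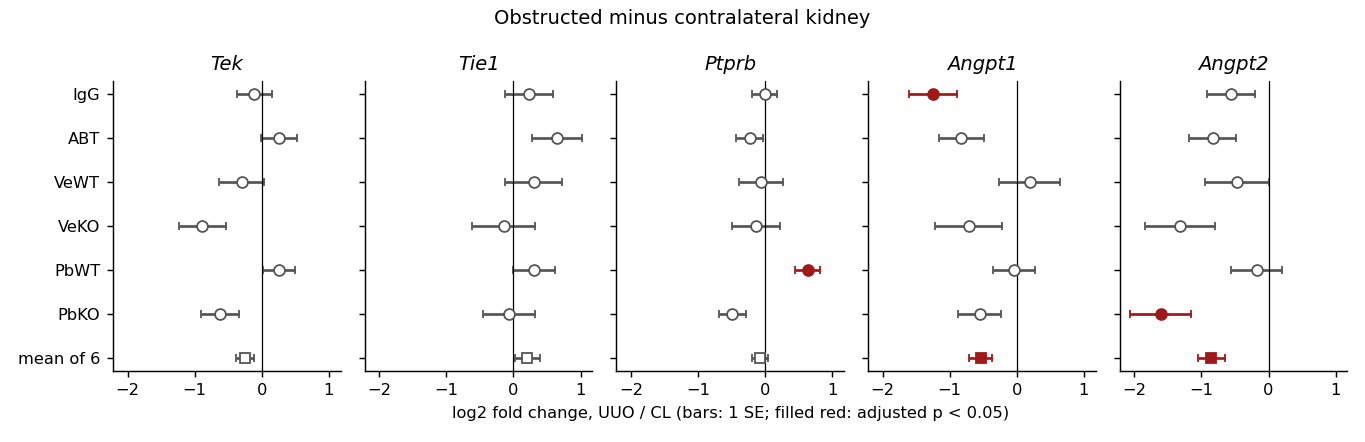
Log2 fold change of each member in UUO over CL kidneys (horizontal axis) for the 6 treatments and genotypes and their mean (rows; the mean is a square), with bars of 1 SE and filled red marks at an adjusted p under 0.05. Angpt2 lies left of 0 in every row, with its mean at -0.85, and Ptprb is called in Pdgfb WT mice, at 0.63.

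The second question was whether activating TIE2 changed the expression of its own pathway. None of the 5 members passed the test between ABTAA and IgG. In UUO kidneys the log2 fold changes of ABTAA over IgG were 0.60 for Angpt1 (SE 0.39), 0.16 for Angpt2 (SE 0.39), 0.10 for Tek (SE 0.27), -0.11 for Tie1 (SE 0.36), and -0.28 for Ptprb (SE 0.20), each with an adjusted p of 1.00. Angpt1 ran from 0 to 12.4 CPM in IgG and from 7.12 to 16.8 CPM in ABTAA UUO kidneys, which overlap. Tek, the target of the antibody's action, had medians of 31.2 and 38.0 CPM. No gene of 9579 passed in UUO (0% called) or in CL kidneys (0% called); 340 and 303 genes had an unadjusted p under 0.05, no member among them, and DESeq2 and edgeR's exact test called 0 genes in both.

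In the Veptp arm Ptprb is the deleted gene, and its level was lower in iECKO kidneys without passing the test. It ran from 28.1 to 74.7 CPM in WT CL (median 59.1 CPM), from 25.2 to 42.2 CPM in iECKO CL (median 32.8 CPM), from 24.9 to 87.4 CPM in WT UUO (median 38.8 CPM), and from 12.1 to 62.8 CPM in iECKO UUO kidneys (median 26.0 CPM). The ranges overlapped in both kidneys. The log2 fold change of iECKO over WT was -0.63 in CL (SE 0.36, unadjusted p = 0.0920) and -0.69 in UUO kidneys (SE 0.33, unadjusted p = 0.0433), with adjusted p of 1.00 in both, where 0% of 11916 genes were called. The form of library name moved with these levels: WT UUO libraries held 45.8, 87.4, 85.2, and 58.6 CPM with joined and 25.6, 26.2, 24.9, and 31.8 CPM with split names, and the 2 forms did not overlap. Within the forms the UUO difference in Ptprb was -0.60 with split (adjusted p = 0.798) and -0.63 with joined names (adjusted p = 0.394). A lower count of whole-gene reads does not show which exons remain, and cells other than endothelium keep the gene.

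The other members did not pass in Veptp iECKO UUO kidneys either: Angpt1 differed by -0.66 (SE 0.45), Tek by -0.50 (SE 0.34), Tie1 by -0.48 (SE 0.42), and Angpt2 by -0.45 (SE 0.50). Without the 8 libraries whose number goes with both genotypes, Ptprb differed by -0.66 in UUO and by -0.90 in CL kidneys, Angpt2 by -0.07 in UUO kidneys, and no member was called. In all libraries all 5 members were lower, with a median of -0.50 against 0.01 over all genes tested. The same held for the endothelial list, of which 11 of the 11 genes tested were lower, with a median of -0.55 and none called. The summed level of the 12 endothelial genes ran from 218 to 414 CPM in iECKO UUO and from 340 to 572 CPM in WT UUO libraries, and set against those genes the members differed by -0.41 to -0.10, with the lowest exact permutation p at 0.543. The direction of these differences rested on single libraries. Replicate 2 of iECKO UUO was at 0 counts of Tek and Angpt2, and without it those differed by 0.08 and 0.03. Replicate 1 was at 0 counts of Tie1 and Angpt1, which without it differed by 0.08 and 0.02. Ptprb turned to between 0.00391 and 0.06 without replicate 2, 3, or 4 of WT UUO or replicate 5 of iECKO UUO. In UUO kidneys 426 genes had an unadjusted p under 0.05, DESeq2 called 1 gene and the exact test 4, and in CL kidneys the numbers were 229, 0, and 0. The difference between the responses of iECKO and WT mice was called for 0% of genes, with 324 genes and no member at an unadjusted p under 0.05 and 0 genes called by DESeq2.

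In the Pdgfb arm, 4 of the 5 members were lower in UUO kidneys labelled Pdgfb iKO than in WT, and none was called. Tek stood at 22.8, 22.1, 36.0, and 37.9 CPM in WT and at 19.9, 16.9, 14.6, and 22.0 CPM in iKO UUO kidneys, groups that did not overlap. Its log2 fold change was -0.70 (SE 0.26, adjusted p = 0.0575), where 18.6% of genes were called, 719 lower and 1315 higher (64.7% higher, against 20.8% without TMM factors). For Angpt2, 1 of the 4 iKO libraries reached above the lowest WT library, and the log2 fold change was -0.92 (SE 0.44, adjusted p = 0.149). Ptprb had -0.48 (SE 0.19, adjusted p = 0.0757), Tie1 -0.53 (SE 0.32, adjusted p = 0.266), and Angpt1 0.17 (SE 0.30, adjusted p = 0.756). Of the endothelial list 4 of 11 genes tested were lower and 0 higher at the threshold, among them Pecam1 at -0.90 (SE 0.25, adjusted p = 0.0132) and Flt1 at -0.64 (SE 0.17, adjusted p = 0.00896), and the summed endothelial level was 240 to 368 CPM in iKO and 338 to 439 CPM in WT UUO libraries. Its part in the lower member levels was tested only as the levels set against endothelial genes, given below. This comparison depends on scaling: without TMM factors the median of all genes moved by -0.27, and Tek (-0.97, adjusted p = 0.00687), Ptprb (-0.75, adjusted p = 0.00495), and Angpt2 (-1.19, adjusted p = 0.0408) were called. Between CL kidneys 0% of genes were called, with 378 at an unadjusted p under 0.05, 1 member, Ptprb, among them, and 0 called by DESeq2 or the exact test.

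**Figure D3:**
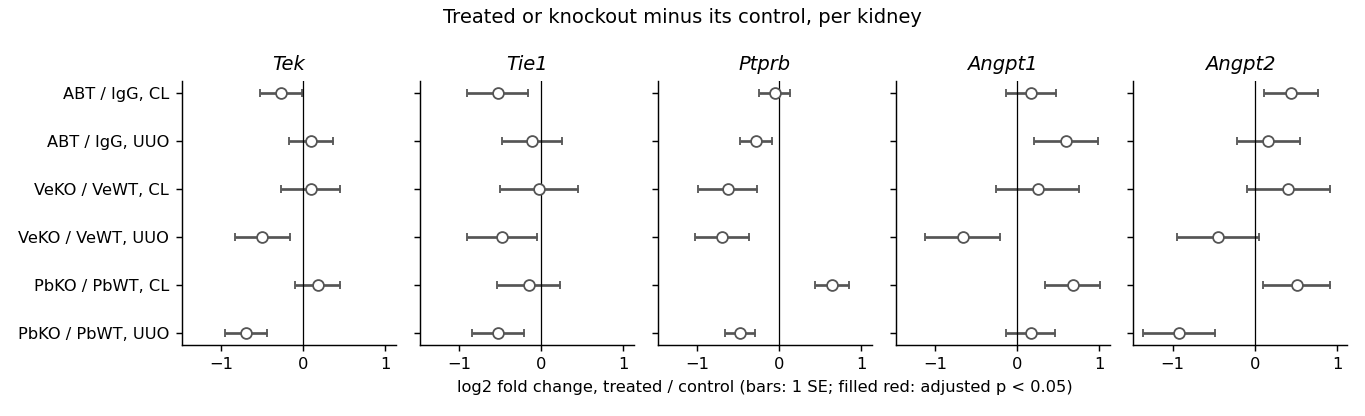
Log2 fold change of each member in treated or knockout over control mice (horizontal axis), for CL and UUO kidneys of the 3 arms (rows), with bars of 1 SE; a filled red mark would show an adjusted p under 0.05, and none is filled. Ptprb lies at -0.63 and -0.69 in the Veptp arm and on opposite sides of 0 in the 2 kidneys of the Pdgfb arm.

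To separate the members from endothelial content, each was set against the 12 endothelial genes of its own library, as the difference of log2(CPM + 1) levels. Over 5 members and 9 comparisons, 45 exact 2-sided permutation tests gave 0 calls after adjustment over the 45, and 5 had an unadjusted p under 0.05. Angpt1 was lower against endothelium in IgG UUO than in IgG CL kidneys, a difference of -1.52 (-2.27 ± 1.60 against -0.74 ± 0.88, SD, n = 8 and 8, exact permutation p = 0.0235, adjusted p = 0.321). The size of that difference depends on the pseudocount, being -0.96 with 5 CPM, since the 2 libraries at 0 counts of Angpt1 stood at -4.59 and -4.98 and the other 6 between -2.23 and -1.09. In ABTAA-treated mice it differed by -0.88 (exact permutation p = 0.0192, adjusted p = 0.321). Ptprb was higher against endothelium in Pdgfb WT UUO kidneys by 0.47 (exact permutation p = 0.0286, adjusted p = 0.321; groups of 4 cannot give a smaller p). Between ABTAA and IgG UUO kidneys it differed by -0.33 (exact permutation p = 0.0441, adjusted p = 0.386). In obstructed kidneys of the Pdgfb arm, Angpt2 differed by -0.54 in iKO relative to WT (exact permutation p = 0.0286, adjusted p = 0.321). Tek gave no unadjusted p under 0.05 in this form.

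The log2 level of Angpt2 minus that of Angpt1 was followed as a description of the balance between the ligands. It is not corrected for gene length, so differences between groups can be read and its sign cannot. It averaged 0.46 ± 0.87 in IgG CL and 1.44 ± 1.29 in IgG UUO kidneys (SD, n = 8 each), with medians of 0.60 and 1.18. The UUO mean includes 2.85 and 3.63 in the 2 libraries at 0 counts of Angpt1, where the pseudocount sets the value, and the other 6 ran from 0 to 1.86 against -1.21 to 1.74 in CL kidneys. The means were 0.55 ± 0.71 in ABTAA CL and 0.39 ± 0.94 in ABTAA UUO kidneys (n = 7 each). In mice labelled Pdgfb iKO it was -0.02 ± 0.82 in CL and -0.86 ± 0.64 in UUO kidneys (n = 4 each), while Pdgfb WT stood at -0.00 ± 1.60 and 0.06 ± 0.28. In the Veptp arm it was 0.41 ± 1.45 in WT CL (n = 7), 0.05 ± 1.00 in WT UUO (n = 8), 0.24 ± 1.73 in iECKO CL (n = 6), and 0.06 ± 1.89 in iECKO UUO kidneys (n = 8), where 2.95 and -3.51 belong to a library at 0 counts of Angpt1 and one at 0 counts of Angpt2. Over all CL libraries the median was 0.50 and over all UUO libraries 0.37, with ranges from -2.12 to 2.46 and from -3.51 to 3.63.

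The levels of each member were set in order of their means across the 12 groups. Tek was highest in Veptp iECKO CL (38.8 ± 29.8 CPM, SD, n = 6) and lowest in UUO kidneys labelled Pdgfb iKO (18.3 ± 3.27 CPM, n = 4), and Tie1 highest in Veptp WT UUO (25.1 ± 13.0 CPM, n = 8) and lowest in CL kidneys labelled Pdgfb iKO (11.6 ± 5.68 CPM, n = 4). Ptprb ran from 65.2 ± 10.1 CPM in those same CL kidneys to 31.3 ± 17.7 CPM in Veptp iECKO UUO (n = 8), Angpt1 from 21.8 ± 7.40 CPM, again in CL kidneys labelled Pdgfb iKO, to 6.58 ± 4.35 CPM in IgG UUO (n = 8), and Angpt2 from 33.4 ± 20.0 CPM in ABTAA CL (n = 7) to 7.23 ± 3.17 CPM in UUO kidneys labelled Pdgfb iKO. Of the 11 neighbouring pairs of groups in each order, all 11 differed by less than the smaller SD for Tek, Angpt1, and Angpt2, as did 10 for Ptprb and 9 for Tie1. Sorting 12 means makes the gaps between neighbours small by itself, so these counts cannot show whether an order holds. The highest and the lowest group did not overlap for Angpt1 and Angpt2 and overlapped for the other members.

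The genes whose levels went most closely with each member were sought among 9427 genes, by Spearman's rho over the 75 libraries after subtracting the mean of each arm and form of library name. These values are descriptions, given without a p: libraries include both kidneys of the same mice, and all share depth and the response to UUO. Tek went with Hpgd, a prostaglandin-degrading enzyme (0.592), Podxl, which encodes podocalyxin of podocytes and endothelium (0.585), and Gsn, the actin-severing gelsolin (0.577). Ptprb went with Kdr, the VEGF receptor (0.572), Ptges (0.505), and Sh3bgrl (0.485). Tie1 went with Rcn3 (0.541), Srpx2 (0.487), and Cdh5, which encodes VE-cadherin (0.467). Among the members themselves rho was highest for Tek with Ptprb (0.504), Tek with Angpt2 (0.495), and Tek with Tie1 (0.416). Against the mean level of the 12 endothelial genes it was 0.653 for Tek, 0.561 for Angpt2, 0.544 for Ptprb, 0.489 for Tie1, and 0.216 for Angpt1. For Angpt2 it was 0.468 among CL and 0.749 among UUO libraries.

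Tubular genes were among those closest to the ligand genes. Angpt2 went most closely with Aqp4, a water channel of collecting duct principal cells (0.667), Apela, a peptide ligand of the apelin receptor (0.635), and Tmem30b (0.632). Angpt1 went with Ddc, a decarboxylase abundant in proximal tubules (0.608), Stard4, a sterol carrier (0.603), and Pcmtd2 (0.594). All 6 of these genes were themselves called lower with obstruction, with log2 fold changes of -1.50 for Aqp4 (SE 0.19), -0.60 for Ddc (SE 0.10), and -0.74 for Stard4 (SE 0.09). A list of 8 collecting duct genes, Aqp4 among them, was therefore added after these values were seen. All 8 fell with obstruction in the mean over all mice, from -0.34 (SE 0.09) for Scnn1g to -1.50 for Aqp4, and their summed level was 324 to 1892 CPM in CL (median 642 CPM) and 167 to 604 CPM in UUO libraries (median 369 CPM). Angpt2 had a rho of 0.602 with the mean level of that list, of 0.799 among the 36 CL libraries alone and of 0.345 among the 39 UUO libraries alone, while over all libraries Angpt1 had 0.469, Tek 0.408, Ptprb 0.289, and Tie1 -0.08. The list was built on the gene closest to Angpt2 in these libraries, so its rho with Angpt2 is not independent of that choice. With the 4 loop and distal tubule genes, which share Aqp2 with it, Angpt2 had a rho of 0.46, of 0.695 among CL and 0.052 among UUO libraries. All 5 proximal tubule genes fell as well, their summed level going from a median of 5428 CPM in CL to 2730 CPM in UUO libraries, and Angpt1 had a rho of 0.337 with their mean level over all libraries, but of -0.213 among CL and 0.016 among UUO libraries. The part of these tubular genes in the lower ligand levels was not tested.

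**Figure D4:**
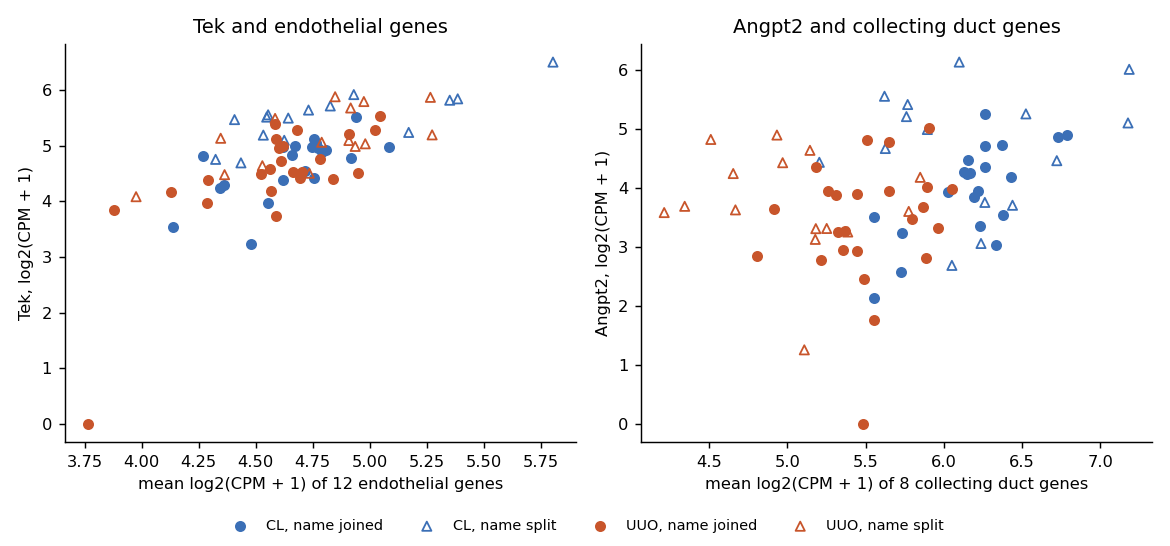
Left, Tek against the mean level of 12 endothelial genes, and right, Angpt2 against the mean level of 8 collecting duct genes, all as log2(CPM + 1), with 1 point per library, blue for CL, red for UUO, and open triangles for split names. Tek rises along the endothelial axis in both kidneys (rho 0.653 after centring), and the UUO libraries lie to the left of most CL libraries on the collecting duct axis, where Angpt2 has a rho of 0.602.

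Genes around the members were counted from lists chosen for their known roles. Of other ligands and co-receptors, all 3 genes tested rose with obstruction in the mean over all mice (0 fell): Itga5, the fibronectin-binding integrin subunit that can associate with TIE2, by 1.62 (SE 0.23), Svep1, an extracellular matrix protein that binds TIE1, by 0.95 (SE 0.15), and Itgb1 by 0.53 (SE 0.06). Angpt4 was in the table but held too few counts to be tested. The median of this list was 0.95 against 0.02 over all genes, where 50.6% of 12210 genes were called. In UUO kidneys labelled Pdgfb iKO Svep1 and Itgb1 were lower than in Pdgfb WT, at -0.87 (SE 0.28, adjusted p = 0.0301) and -0.41 (SE 0.13, adjusted p = 0.0238). They were the only 2 genes of the list tested there, and 18.6% of 10923 genes were called.

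Of the TIE2 adaptors and signalling genes, 5 of the 11 tested rose and 2 fell with obstruction, with a median of 0.14, where 50.6% of all genes were called. Tnip2, the NF-kB regulator also known as ABIN-2, rose by 0.83 (SE 0.14), Pik3r1, a regulatory subunit of PI 3-kinase, by 0.53 (SE 0.08), Akt1 by 0.51 (SE 0.10), and Shc1 by 0.43 (SE 0.10), while Grb7 fell by 0.43 (SE 0.14) and Grb14 by 0.31 (SE 0.12). Foxo1, the transcription factor that AKT restrains, had -0.18 (SE 0.10, adjusted p = 0.141), and Nos3, endothelial nitric oxide synthase, -0.01 (SE 0.20, adjusted p = 0.976). Most of these genes are expressed in many cell types of the kidney. Of the 10 genes of this list tested for it, 1, Pik3r1, had a response that differed between mice labelled Pdgfb iKO and Pdgfb WT, by -1.01 (SE 0.21, adjusted p = 0.00325), where 8.56% of all genes were called.

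Of the 4 VE-PTP partners, Cdh5 rose by 0.39 (SE 0.12, adjusted p = 0.00491) and Kdr fell by 0.42 (SE 0.14, adjusted p = 0.00682), and Jup and Fgd5 did not pass. The 11 endothelial genes tested, which include Cdh5 and Kdr as well, had 1 higher, Cdh5, and 4 lower, Kdr, Emcn (-0.47, SE 0.12), Esam (-0.50, SE 0.13), and Ehd3 (-0.65, SE 0.13). Their median was 0.01 against 0.02 over all genes, of which 50.6% were called. Tek, at -0.25, and Ptprb, at -0.08, lay within that spread, and Angpt2, at -0.85, below each of those endothelial genes.

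Other lists gave the cell types whose levels moved beside the members in the mean UUO effect, in which 50.6% of all genes were called, 3140 higher and 3039 lower. Of 7 pericyte and fibroblast genes 6 rose and 0 fell, of 5 macrophage genes 5 rose, of 4 tubular injury genes 4 rose, of 4 loop and distal tubule genes 4 fell, and of 5 podocyte genes 1 rose and 2 fell. Of 2 lymphatic genes tested Flt4 rose by 0.53 (SE 0.21) and Prox1 fell by 1.64 (SE 0.21), and of 3 fat genes and 2 red cell genes tested none was called. Pericytes and podocytes are known sources of Angpt1, and the mean levels of their lists had a rho of -0.337 and 0.366 with it over all libraries. Among CL libraries these were -0.066 and 0.258, and among UUO libraries 0.142 and 0.382.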

How the data were processed

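Whole-kidney RNA was measured in 75 mouse libraries. The authors ran each sample in 4 wells, merged the wells, mapped the reads with STAR 2.7.3a, removed duplicates with UMI-tools 1.1.4, and counted them on genes with featureCounts of Subread 1.4.6-p5 on build mm10, per the submitters' processing notes; the annotation is not given in the sources used here. The deposited values are counts per gene and library, not normalized.

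Counts were fitted in R 4.3.3 with edgeR 4.0.16 (TMM, filterByExpr by group, glmQLFit without legacy dispersions, glmQLFTest), each arm over its 4 groups and all 12 groups in 1 fit for the mean UUO effect. The study's own test was edgeR's exact test, run here as an alternative, as was DESeq2 1.42.0. The SE is the log2 fold change divided by the square root of F. CPM used TMM factors over all 75 libraries, and log2 levels a pseudocount of 1 CPM. Permutations and figures used Python 3.11.15, numpy 2.4.6, pandas 2.3.3, and matplotlib 3.10.9. Coordinates come from GENCODE vM21 on GRCm38. The fits were tested on simulated counts.

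Replicates are separate kidneys by their labels; where libraries came from both kidneys of a mouse is not labelled, so p-values measure the spread between libraries. In ABTAA-treated mice 3 numbers in the library names occur in both kidneys, and the deviations of these pairs from their group means correlated at 0.344, 0.168, and 0.135, each over 0.1, so that the numbers were taken to pair the libraries. Pairs of unlike number in these mice ran from -0.234 to 0.09.

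The members and lists were chosen with earlier results of these data known. All 5 members were named in every comparison, up to 4 genes per list by lowest adjusted p, and the 3 genes of highest rho per member among genes with a mean count of at least 10 that passed the filter in every arm; genes named beyond this (Grb7, Grb14, Flt4, Foxo1, Nos3, Jup, Fgd5, Angpt4, Havcr1, Mcph1, Pdgfb, Scnn1g) were chosen after their values were seen. The collecting duct list was added after values were seen. Alternatives were no TMM factors, other filters, tools, pseudocounts, and denominators, equal depth, forms of library name, the replicate block, arms left out, and each library left out. RefSeq promoters and proteins were not used here.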

Additional observations from a re-analysis of the deposited data

Results flagged for a closer look

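In 2 of the 60 sets formed by a member and a group, 1 library stood far from the others by Dixon's test at the 95% level, which flags about 1 set in 20 by chance. Tie1 was at 0 CPM in replicate 2 of ABTAA UUO, where the next library of 7 held 16.8 CPM; at that library's total of 359468 counts a count of 0 allows a level of up to 9.33 CPM. Angpt2 was at 26.2 CPM (18 counts) in replicate 3 of Veptp iECKO UUO, where the next of 8 libraries held 11.1 CPM. Without that library the effect of UUO on Angpt2 in Veptp iECKO mice was called (adjusted p = 0.0302 with edgeR's quasi-likelihood test).

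The response of Ptprb to obstruction differed between mice labelled Pdgfb iKO and Pdgfb WT by -1.12 on the log2 scale (adjusted p = 0.0107 with edgeR's quasi-likelihood test, 4 libraries in each of 4 groups). The endothelial list differed the same way, with 10 of 11 genes tested lower and a median of -0.52 against -0.00014 over all genes. Of its genes 2 were called, where 8.56% of all genes were called. Kidneys of sham-operated mice are among the Pdgfb WT CL libraries without being marked. Pdgfb itself was not lower in the CL libraries labelled Pdgfb iKO, while in UUO libraries it ran from 33.1 to 40.9 CPM there and from 43.6 to 57.4 CPM in WT.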

How the results depend on the processing

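Apart from leaving out single libraries, 580 of the values recomputed under other settings kept their direction and their side of the threshold, or moved by less than 1.5 times for counts; 9 lost a call, 27 gained one, and 33 counts of members moved by more. Another 57 values, those without 1 library included, changed sign in 18 results, of which 0 were called either way. The causes were not tested, except that Angpt1, Angpt2, and Tie1 dropped below stricter filters.

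For the mean UUO effect, Angpt1 lost its call without TMM factors (-0.35) and without the ABTAA arm (-0.27), and Angpt2 in libraries with joined names (-0.32). Tek was called with a term for the form of library names (-0.26) and in libraries of at least 400000 counts (-0.30), the latter chosen after seeing the data, and stood at 0.028 in libraries with joined names. Ptprb turned to 0.10 without TMM factors and to 0.0028 with a mean count of at least 20. The number of members called, 2, was 1 without TMM factors, 1 in libraries with joined names, 1 without the ABTAA arm, 0 with a mean count of at least 20, and 0 at equal depth, where the ligand genes were not tested in the last 2. Leaving out any 1 library gave 2 calls; Tek ran from -0.28 to -0.17, Tie1 from 0.16 to 0.27, Ptprb from -0.11 to -0.05, Angpt1 from -0.58 to -0.49, and Angpt2 from -0.92 to -0.73.

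In IgG-treated mice the 1 member called became 0 with a mean count of at least 20, under the exact test, with the compared groups alone, at equal depth, and in libraries with joined names, in all of which Angpt1 was not tested. In ABTAA-treated mice 0 became 2 without a filter, with the form as covariate, in libraries with split names, and with the replicate block, which used 6 libraries that also gave 2 without it. In Veptp iECKO mice 0 became 2 with the form as covariate, 3 in libraries with split names, 2 with all 12 groups in 1 fit, and 1 with the replicate block. In Pdgfb WT mice 1 became 2 without TMM factors, 0 at equal depth, and 0 with all 12 groups in 1 fit. In mice labelled Pdgfb iKO 1 became 0 with a mean count of at least 20, at equal depth, and with all 12 groups in 1 fit. Between the UUO kidneys of the Pdgfb arm 0 became 3 without TMM factors, 1 without a filter, 1 with a mean count of at least 20 (both Tek), and 1 under the exact test (Angpt2). For the difference in responses of that arm 1 became 2 without TMM factors, 2 without a filter, 0 at equal depth, and 0 with all 12 groups in 1 fit. Of the 45 tests against endothelial genes 0 became 1 with Pecam1, Cdh5, and Emcn as the denominator.

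Signs turned without TMM factors in IgG-treated mice for Tek (0.10) and Ptprb (0.20), in Veptp WT mice for Ptprb (0.048), in Pdgfb WT mice for Angpt1 (0.33) and Angpt2 (0.21), in mice labelled Pdgfb iKO for Tie1 (0.014), and between the UUO kidneys of the Pdgfb arm for Angpt1 (-0.10). With a mean count of at least 20 they turned in IgG-treated mice for Tek (0.0021) and Ptprb (0.10). Ptprb in IgG-treated mice also turned under the exact test (0.0015), with the compared groups alone (0.026), and in libraries with split names (0.21). At equal depth Ptprb turned in ABTAA-treated (0.11) and Angpt2 in Pdgfb WT mice (0.20). In libraries with joined names Angpt2 turned between ABTAA and IgG UUO kidneys (-0.050), Ptprb in Veptp WT (0.13) and Veptp iECKO mice (0.47), and Tek in Veptp iECKO mice (0.62). In Veptp iECKO mice Tie1 turned with the form as covariate (0.0021), and Tie1 (0.14) and Ptprb (0.17) without the 8 libraries whose number goes with both genotypes.

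In the Veptp arm library numbers gave 2 same-numbered pairs per genotype, with correlations of 0.073 and 0.138 in WT and of 0.223 and 0.443 in iECKO mice. Of these 0.073 was not over 0.1, but pairs of unlike number reached 0.165 in WT and 0.407 in iECKO mice. Some numbers also go with both genotypes, so whether the numbers pair libraries in this arm stayed undecided. With the replicate block, genes called went from 873 to 2278 in WT and from 1234 to 2503 in iECKO mice, Tie1 turned to 0.31, Angpt1 to 0.43, and Angpt2 was called (-1.21) in iECKO mice. In the paired ABTAA-treated mice the block moved all genes called from 2205 to 2840.

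Leaving out single libraries gave 0 to 1 members called in ABTAA-treated mice (1 without ABTAA CL replicate 2, 3, or 4, and without 3 other libraries), in Veptp iECKO mice, in mice labelled Pdgfb iKO, and between UUO kidneys of the Pdgfb arm. It gave -0.28 to 0.020 for Tek and -0.13 to 0.058 for Ptprb in IgG-treated mice, -0.0097 to 0.27 for Tek and -0.26 to 0.060 for Tie1 between ABTAA and IgG UUO kidneys, -0.26 to 0.046 for Ptprb and -0.057 to 0.51 for Angpt1 in Veptp WT mice, -0.35 to 0.22 for Tie1 and -0.36 to 0.0050 for Ptprb in Veptp iECKO mice, -0.21 to 0.18 for Angpt1 and -0.55 to 0.068 for Angpt2 in Pdgfb WT mice, -0.25 to 0.091 for Tie1 in mice labelled Pdgfb iKO, and -0.080 to 0.27 for Angpt1 between UUO kidneys of the Pdgfb arm.

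Over all genes, equal depth cut the genes called by UUO from 3301 to 1579 in IgG-treated, 2407 to 985 in ABTAA-treated, 2194 to 755 in Veptp WT, 4075 to 2282 in Pdgfb WT mice, and 6179 to 3115 in the mean. A term for the form raised Veptp WT to 4043, and Veptp iECKO mice, 947, went from 0 with joined to 2651 with split names. With all 12 groups in 1 fit, 694 became 125 in mice labelled Pdgfb iKO, 2034 became 322 between UUO kidneys of the Pdgfb arm (3157 without TMM factors), and 935 became 10 for their difference in responses. The spread test went from 7 to 0 without the ABTAA arm and to 321 with joined names. Where comparisons called 0 genes, the highest counts under other settings were 6, 1, and 0 in the ABTAA arm, 4, 2, and 4 in the Veptp arm, and 16 between CL kidneys of the Pdgfb arm. Without TMM factors the share of called genes that were higher went from 47.3% to 69.6% in IgG-treated, 50.3% to 66.7% in ABTAA-treated, 54.5% to 71.8% in Veptp WT, 56.3% to 71.7% in Veptp iECKO, 48% to 79.4% in Pdgfb WT mice, 62.0% to 78.9% in mice labelled Pdgfb iKO, and 77.9% to 31.8% for the Pdgfb difference.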
